A study of Gallus gallus with 21 samples.

Results

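The cytosolic ribosome of the chicken retina was followed through the transcripts of its protein genes. Genes were taken whose symbol begins with RPL or RPS and a digit, or with RPLP0 to RPLP2, together with RPSA, and kinases of ribosomal protein S6 were left out. A gene also had to reach 0.5 CPM (reads of a gene scaled to a common library total) in at least 7 of 21 libraries. Of 75 genes with such a name, 73 met that level, out of 12614 genes that met it and 18631 in the table. RPL3L was among the 2 that did not. The 73 hold 37 proteins of the large subunit, 28 of the small subunit, the 3 stalk proteins, 4 genes whose symbols mark them as paralogs (RPL22L1, RPL26L1, RPL7L1 and RPS27L) and RPS19BP1, a nuclear partner of the small-subunit protein RPS19.

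The birds were control, wild-type White Leghorn chickens kept under standard lighting, and whole retina was collected 1, 3 or 6 days after a start at postnatal day 3, that is at postnatal day 4, 6 or 9. Each day has 7 libraries, made from total RNA after removal of ribosomal RNA. The labels name no sex and no pooling, and do not say whether a pair of libraries came from the same bird, so p-values measure the spread between libraries. No treatment, transgene or deletion is carried by any group.

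A ribosome is built of a large and a small subunit, each a scaffold of ribosomal RNA dressed with proteins. The large subunit forms peptide bonds and carries the flexible stalk that recruits elongation factors, and the small subunit reads the messenger RNA. Transcripts of most ribosomal protein genes begin with a tract of pyrimidines through which the growth regulator mTOR adjusts their translation, and their introns often carry small nucleolar RNAs (snoRNAs) that guide the modification of ribosomal RNA. In the retina, photoreceptors renew their outer segments daily and so make protein throughout life.

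Estimated from the step between low values in each library, depth was 27.8 to 41.4 megareads, of which 29.9% to 34.2% lay in the genes of the table. The 73 genes held 72.0 to 134 kiloreads per library. The least covered gene, RPS27L, had 20 to 61 reads per library and the most covered, RPL4, 3089 to 6250. The W-linked gene HINTW, which only female birds carry, had 121 to 147 CPM in 13 libraries, called W+ here, and 0.0286 to 0.549 CPM in the other 8, called W-. The W+ libraries were 3, 4 and 6 of the 7 at days 1, 3 and 6, so this division moves with day. Photoreceptor marker genes were abundant (1528 to 2322 CPM in sum), and pigment epithelium genes summed to 17.1 to 28.2 CPM. Of the erythroid genes listed only 1 was in the table, at 0.0549 CPM or less, so red blood cell content was not assessed.

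The 73 genes together took 2804 ± 133 CPM at day 1, 3048 ± 168 CPM at day 3 and 3314 ± 167 CPM at day 6 (SD, n = 7 each). The 7 sums at day 6 ran from 3122 to 3509 CPM and those at day 1 from 2593 to 2984 CPM, without overlap. As a share of all reads in the table, the same genes took 0.992 ± 0.0505% at day 6 and 0.906 ± 0.0510% at day 1, and these shares did overlap (0.940% to 1.05% at day 6, 0.831% to 0.999% at day 1). The summed rise is thus larger on the CPM scale than within the genes of the table, whose own share of reads was 33.4 ± 0.454% at day 6 and 30.99 ± 0.688% at day 1. RN7SL1, which encodes the RNA scaffold of the particle that leads ribosomes to the membrane, had 3.48 ± 0.306% of the CPM in the table at day 6 and 4.29 ± 0.358% at day 1, and its part in the result was not tested. In whole retina, fewer cells of a type and less RNA per cell cannot be told apart.

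**Figure D1:**
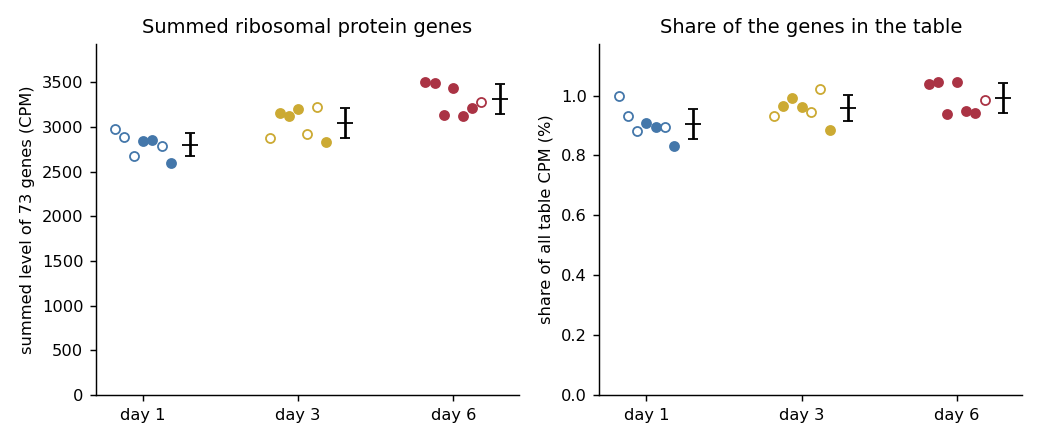
Summed level of the 73 ribosomal protein genes in CPM (left) and their share of all CPM in the table in percent (right), for the 7 libraries of each day. Filled points are W+ and open points W- libraries, and bars give the mean ± SD. The day 6 sums, 3122 to 3509 CPM, lie above all day 1 sums, whereas the shares overlap.

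Between days 1 and 6, transcripts of 40 of the 73 genes rose and 0 fell (limma on log2(CPM + 0.5), Benjamini-Hochberg adjusted p under 0.05 over all genes tested), or 54.8%. Among all 12614 genes tested, 30.0% rose and 2.57% fell. The median change of the 73 genes was +0.26 on the log2 scale against +0.14 for all genes tested, and 67 of the 73 lay above 0. The share of all genes above 0 was not computed. Abundant genes rose more often than others: 40.2% of the 5538 genes with a mean of 10 CPM or more rose, beside 37 of the 65 ribosomal protein genes of that abundance (56.9%). The day 6 and day 1 values did not overlap for 16 of the 73 genes, all higher at day 6, beside 9.31% of all genes. By subunit, 21 of 37 large-subunit and 15 of 28 small-subunit genes rose, with median changes of +0.26 and +0.28.

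The count depends on how libraries are scaled. Under median-of-ratios scaling, where the median change of all genes is 0.00, 10 of the 73 rose and 2 fell, beside 8.25% and 8.91% of all genes, and the median of the 73 was +0.10. On that scale 51 of the 73 lay above 0, and with quantile normalization 49 did. All 10 are among the 40. They include RPLP0, RPL3, RPL4, RPL13, RPL22, RPL32 and RPL35 of the large subunit and RPS4X and RPSA of the small one. The 2 that fell on that scale are RPL22L1 (-0.32, adjusted p = 0.0355) and RPS21 (-0.35, adjusted p = 0.0410). Among the 13 W+ libraries, 16 rose and 0 fell, beside 6.15% and 0.682% of all genes, and 15 of the 16 are among the 40. On the CPM scale with the mean log2 level of W-linked genes as a covariate, 34 rose (46.6%) and 0 fell. Of all genes, 21.4% rose and 2.07% fell in that fit, and 31 of the 34 are among the 40.

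**Figure D2:**
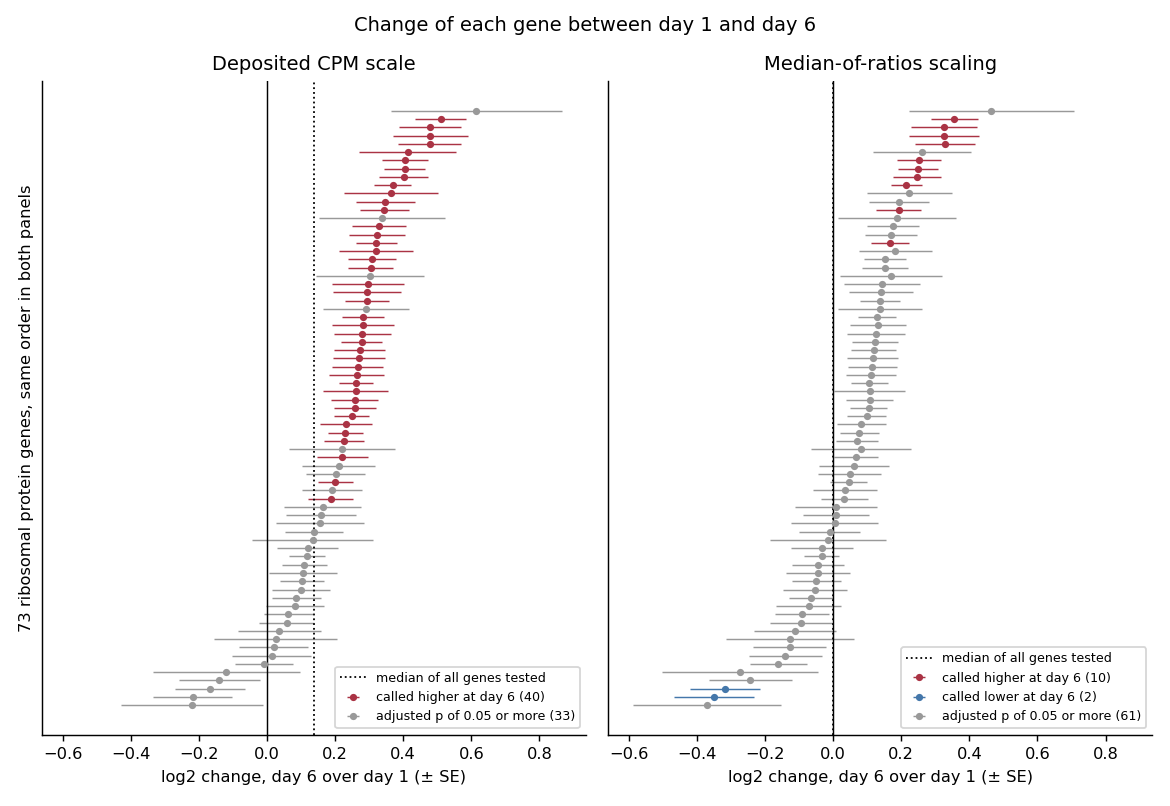
Change of each of the 73 genes on the log2 scale, day 6 over day 1, with its SE (horizontal axis), on the deposited CPM scale (left) and with median-of-ratios scaling (right). Genes keep the same order in both panels. On the CPM scale 40 are called higher and 0 lower, and with the other scaling 10 higher and 2 lower. The dotted line is the median of all genes tested.

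Of the 3 stalk genes, 2 rose. RPLP0, the protein that anchors the stalk to the large subunit (chromosome 15, 9721891 to 9724551, build GRCg6a), ran from 29.9 to 38.6 CPM at day 1 (median 35.3), from 29.6 to 43.2 CPM at day 3 (median 36.6) and from 45.1 to 53.8 CPM at day 6 (median 49.4). Every library of day 6 lies above every library of days 1 and 3, and days 1 and 3 overlap. The change was +0.51 (SE 0.08, adjusted p = 9.8e-05, higher in 7 of 7 libraries) at day 6 against day 1 and +0.47 (SE 0.08, adjusted p = 0.000165) against day 3, but +0.04 (adjusted p = 0.790) at day 3 against day 1. RPLP2, one of the acidic proteins that dock onto RPLP0 in pairs (chromosome 5, 15988899 to 15993596), ran from 14.3 to 16.3 CPM at day 1 (median 15.6), from 14.2 to 16.0 CPM at day 3 (median 14.7) and from 16.3 to 20.2 CPM at day 6 (median 18.2). It changed by +0.25 (SE 0.05, adjusted p = 0.00111) at day 6 against day 1 and by +0.29 (SE 0.05, adjusted p = 0.000421) at day 6 against day 3, where its values do not overlap either. With median-of-ratios scaling RPLP0 rose by 0.36 (adjusted p = 0.00148), whereas RPLP2 was at +0.10 (adjusted p = 0.243), both at day 6 against day 1.

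On the CPM scale, the later step was larger than the earlier one for RPLP0 and RPLP2. The change from day 3 to 6 exceeded that from day 1 to 3 by 0.44 for RPLP0 (SE 0.13, adjusted p = 0.0304) and by 0.33 for RPLP2 (SE 0.09, adjusted p = 0.0182). These were the only 2 of the 73 genes called in that test (2.74%), all other members having an adjusted p of 0.05 or more. Of all genes, 6.33% were called higher and 5.48% lower, so members were called no more often than all genes. The RPLP0 call was lost without any one of the day 3 libraries C31L, C34L or C42L (adjusted p = 0.0862, 0.0885 and 0.0631). In the W+ libraries alone neither passed (+0.32 and +0.28, adjusted p = 0.299 and 0.270). With quantile normalization RPLP2 was not called by limma (+0.285, adjusted p = 0.0617), while RPLP0 was (+0.393, adjusted p = 0.0361).

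RPLP1, the acidic partner of RPLP2 (chromosome 2, 145698649 to 145699801), was more variable. It ran from 9.05 to 13.4 CPM at day 1 (median 11.1), from 8.59 to 20.6 CPM at day 3 (median 14.7) and from 7.94 to 22 CPM at day 6 (median 11.4). All 3 days overlap, and its change at day 6 against day 1 was +0.13 (SE 0.18, adjusted p = 0.588). Whether RPLP1 differs from RPLP0 or RPLP2 was not tested.

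**Figure D3:**
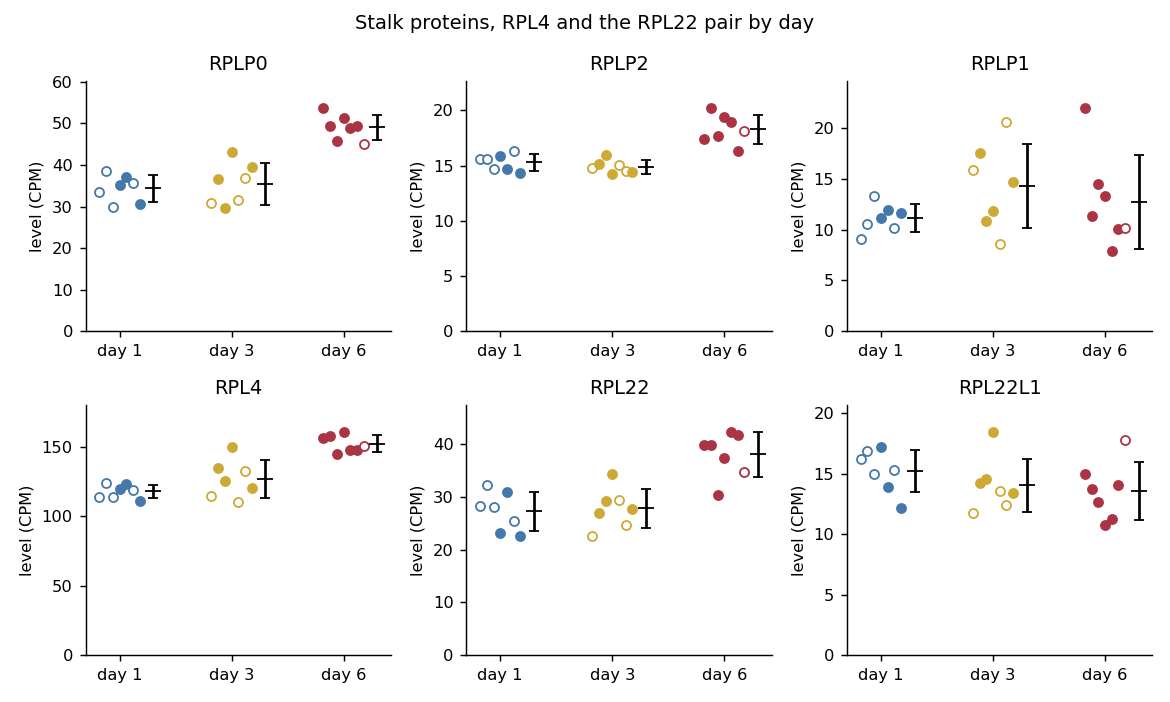
Level in CPM of the stalk genes RPLP0, RPLP2 and RPLP1 (top) and of RPL4, RPL22 and its paralog RPL22L1 (bottom), for 7 libraries at each of days 1, 3 and 6. Filled points are W+ and open points W- libraries, and bars give the mean ± SD. RPLP0 at day 6 lies above all values of days 1 and 3. RPLP2 does so only narrowly, with 16.34 CPM lowest at day 6 and 16.33 CPM highest at day 1. RPL22L1 overlaps at all days.

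Among the other proteins of the large subunit, RPL4 took the most reads of all 73 genes. RPL4 reaches with a long loop into the wall of the tunnel through which the new protein leaves (gene at chromosome 10, 18943500 to 18948822). It ran from 111 to 124 CPM at day 1 (median 119), from 110 to 150.2 CPM at day 3 (median 125) and from 145 to 161 CPM at day 6 (median 151). Day 6 lies above day 1 without overlap, while day 3 spans both. RPL4 rose by 0.37 at day 6 against day 1 (SE 0.05, adjusted p = 8.21e-05) and by 0.27 at day 6 against day 3 (adjusted p = 0.00105). It rose also with median-of-ratios scaling (+0.21, adjusted p = 0.00341) and in the W+ libraries alone (+0.37, adjusted p = 0.00918).

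RPL13, a protein of the surface of the subunit, ran from 48.5 to 63.8 CPM at day 6 (median 51.9) and from 37.0 to 45.7 CPM at day 1 (median 39.9). RPL3, which lies near the peptidyl transferase centre, ran from 43.1 to 62 CPM at day 6 (median 49.2) and from 31 to 40.8 CPM at day 1 (median 37.3). RPL27 ran from 75.1 to 85.1 CPM at day 6 (median 83.0) and from 60.1 to 73 CPM at day 1 (median 68.9). In none of these 3 genes do the days overlap. They rose by 0.40, 0.40 and 0.26 (adjusted p = 0.000116, 0.000443 and 0.000558), and RPL27 was not called with median-of-ratios scaling. RPL35, near the mouth of the exit tunnel, ran from 11.0 to 16.4 CPM at day 6 (median 14.2) and from 7.87 to 10.8 CPM at day 1 (median 10.1). It rose by 0.48 (SE 0.09, adjusted p = 0.000670), and by 0.42 at day 6 against day 3 (adjusted p = 0.00205). Its 2 steps were not called unequal (+0.37, SE 0.16, adjusted p = 0.137).

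In the small subunit, RPS4X, whose human counterpart lies on the X chromosome but whose chicken gene lies on chromosome 4, ran from 61.7 to 81.9 CPM at day 6 (median 70.5) and from 49.9 to 61.0 CPM at day 1 (median 57.4). The days do not overlap, and it rose by 0.32 (adjusted p = 0.000596), a call lost in the W+ libraries alone. RPSA, which also acts as a cell-surface receptor for laminin, ran from 48.4 to 70.7 CPM at day 6 (median 59.2) and from 35.5 to 49.3 CPM at day 1 (median 41.4). These ranges overlap slightly, and the rise was 0.48 (SE 0.11, adjusted p = 0.00232), likewise not called in the W+ libraries alone.

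At day 3 against day 1, 3 of the 73 genes rose and 0 fell (4.11%), beside 7.71% and 2.43% of all genes, and for 0 of the 73 did the days not overlap, beside 1.53% of all genes higher at day 3 without overlap. Of the 65 abundant members 3 rose, beside 9.84% of all genes of that abundance. The median changes were +0.12 for the 73 and +0.07 for all genes, and from day 3 to 6 they were +0.10 and +0.07. On the CPM scale the median size of the change was thus alike in both steps, although fewer genes passed in the first. The medians of the 73 in the 2 steps were +0.05 and +0.02 with median-of-ratios scaling. With quantile normalization they were +0.07 and +0.01. RPS25, which some viral messengers need to start translation, ran from 62.2 to 81.9 CPM at day 3 (median 71.2) and from 58.5 to 69.0 CPM at day 1 (median 63.5), a rise of 0.20 (adjusted p = 0.0408). RPS3A ran from 110 to 152 CPM at day 3 and from 104 to 124 CPM at day 1, a rise of 0.21 (adjusted p = 0.0444). RPL5, which carries the 5S ribosomal RNA into the subunit, ran from 80.7 to 105 CPM at day 3 and from 77.8 to 88.9 CPM at day 1, a rise of 0.19 (adjusted p = 0.0465). RPL32 (+0.22) and RPSA (+0.34) came next, both with adjusted p = 0.0502.

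These early calls lie near the threshold and change with the library left out. Leaving out each library in turn gave 0 to 19 calls, with 19 without C42L of day 3, 7 without C44R and 6 without C19L, C21R or C31L. Without C42L, rises over all genes also went from 7.71% to 13.6%, beside 26.0% of members. Without C44R, 9.59% of members rose, beside 6.93% of all genes. Without C19L, C21R or C31L, 8.22% of members rose, beside 7.5%, 8.45% and 7.34% of all genes. There were 0 calls without C18R, C23R, C34L, C41R or C43R and 1 without C33R, where 4.99% to 7.27% of all genes rose. With median-of-ratios scaling, quantile normalization or the W+ libraries alone, 0 of the 73 were called. In these 3 settings 4.51%, 4.54% and 1.38% of all genes rose.

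At day 6 against day 3, 15 of the 73 genes rose and 0 fell (20.5%), beside 17.4% and 4.93% of all genes, a share near that of all genes. Of the abundant members 15 rose (23.1%), beside 27.3% of abundant genes. Without overlap stood 2 of the 73, beside 3.65% of all genes higher at day 6. The 15 were 10 of the large subunit, 3 of the small subunit and the 2 stalk genes above. Of the 15, 14 also rose at day 6 against day 1. None of the 3 genes called at day 3 against day 1 was called again at day 6 against day 3, and all 3 were among the 40. A missing call does not show that their rise stopped. Their 2 steps were not called unequal by limma (adjusted p = 0.554 to 0.606). With median-of-ratios scaling 6 rose and 1 fell (8.22% and 1.37%), beside 8.63% and 8.51% of all genes, so that the rises were no more frequent than among all genes. The one that fell was RPL39, the small protein of the exit tunnel, at 39.2 to 52.8 CPM at day 6 and 38.3 to 74.2 CPM at day 3 (-0.32 on that scale, adjusted p = 0.0419, and -0.24, adjusted p = 0.135, on the CPM scale). Over all 3 days together, 35 of the 73 differed at some day (47.9%), beside 38.6% of all genes.

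Of the 4 paralogs, 1 rose at day 6 against day 1 (25%, beside 30.0% of all genes) and 0 fell. Differences among the 4 were not tested. RPL22, a protein of the large subunit that vertebrate cells can spare (chromosome 21, 642819 to 645473), ran from 22.6 to 32.3 CPM at day 1 (median 28.0), from 22.7 to 34.4 CPM at day 3 (median 27.6) and from 30.3 to 42.4 CPM at day 6 (median 39.9). It rose by 0.48 at day 6 against day 1 (SE 0.09, adjusted p = 0.000650) and by 0.45 against day 3 (adjusted p = 0.00137). Its paralog RPL22L1, whose product can take the place of RPL22 in the ribosome and which in mice is held back by RPL22 (chromosome 9, 19878954 to 19880949), ran from 12.2 to 17.2 CPM at day 1 (median 15.3), from 11.7 to 18.5 CPM at day 3 (median 13.6) and from 10.7 to 17.8 CPM at day 6 (median 13.7). Its change was -0.17 (SE 0.10, adjusted p = 0.217) on the CPM scale.

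A ratio of 2 genes in the same library does not depend on a scaling factor applied to that library, apart from the pseudocount. Quantile normalization is not such a factor, and the ratios were not computed with it. The ratio of RPL22 to RPL22L1 was 1.80 ± 0.27 at day 1, 1.99 ± 0.104 at day 3 and 2.88 ± 0.619 at day 6 (SD, n = 7 each, read counts not divided by length). It was higher by 0.65 on the log2 scale at day 6 against day 1 (two-sided exact permutation test, p = 0.00117, adjusted over 3 pairs 0.0035). All 7 day 6 libraries lay above the day 1 mean, but the ranges overlapped (1.96 to 3.76 at day 6, 1.34 to 2.23 at day 1). Against day 3 the ratio was higher by 0.50 at day 6 (exact permutation p = 0.00291, adjusted 0.00874). The same test for RPL7 over RPL7L1 gave -0.01 (exact permutation p = 0.921), with ratios of 4.35 ± 0.464 at day 6 and 4.37 ± 0.396 at day 1. RPS27 over RPS27L gave +0.44 (exact permutation p = 0.0361, adjusted 0.0542). RPS27L has at most 61 reads in a library, which limits the precision of that ratio. These ratios were chosen after the values of the genes were seen.

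Of the remaining paralogs, RPL26L1 ran from 94.4 to 114 CPM at day 6 (median 103) and from 80.7 to 94.9 CPM at day 1 (median 88.3), and rose by 0.23 (adjusted p = 0.00553, not called with median-of-ratios scaling). No gene with the symbol RPL26 is in the table, and RPL26L1 was classed as a paralog by its symbol alone. RPL7L1 ran from 17.1 to 18.5 CPM at day 6 and from 15.2 to 17 CPM at day 1. These values do not overlap, yet the change of +0.12 missed the threshold (adjusted p = 0.0887) and turned to -0.03 with median-of-ratios scaling. RPS27L was at 0.956 ± 0.190 CPM at day 6 and 1.11 ± 0.243 CPM at day 1 (-0.14, adjusted p = 0.382). RPS19BP1 was at 3.90 ± 0.822 CPM at day 6 and 3.00 ± 0.420 CPM at day 1 and rose by 0.32 (adjusted p = 0.0286). That call was lost without C17L, C18R, C57L or C59L (adjusted p = 0.0548 to 0.0720).

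Of the members, 4 lie on chromosome Z, of which male birds carry a pair and females a single copy. Sex is not given, so the 13 W+ libraries were set against the 8 W- libraries, with day as a factor. RPS6, the small-subunit protein that S6 kinases phosphorylate (chromosome Z, 33736418 to 33740877), ran from 59.5 to 92.0 CPM in W+ libraries (median 73.6) and from 104 to 158 CPM in W- libraries (median 141). RPL17 (chromosome Z, 1078186 to 1081527) ran from 13.1 to 19.7 CPM in W+ libraries (median 17.6) and from 21.6 to 30.9 CPM in W- libraries (median 25.4). RPS23, of the decoding centre (chromosome Z, 63563439 to 63565259), ran from 9.48 to 18.9 CPM in W+ libraries (median 14.6) and from 19.5 to 33.6 CPM in W- libraries (median 22.1). In all 3 genes the classes do not overlap.

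By limma, these 3 genes were lower in W+ libraries, RPS6 by -0.88 (SE 0.07, adjusted p = 1.05e-09), RPL17 by -0.73 (SE 0.06, adjusted p = 1e-09) and RPS23 by -0.73 (SE 0.11, adjusted p = 5.14e-05). In means, W+ libraries held 0.571 times the RPS6 level of W- libraries, 0.637 times that of RPL17 and 0.598 times that of RPS23. Within day 1 alone, RPS6 stood at 59.5 to 70.0 CPM in 3 W+ libraries and at 117 to 146 CPM in 4 W- libraries. Within day 3, RPS6 stood at 67.9 to 88.0 CPM in 4 W+ libraries and at 104 to 142 CPM in 3 W- libraries. Day 6 has a single W- library, C65L.

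The remaining Z-linked member was different. RPL37 (chromosome Z, 12918278 to 12920909) ran from 7.72 to 11.1 CPM in W+ libraries (median 9.09) and from 7.51 to 12.7 CPM in W- libraries (median 9.55), with much overlap. Its difference was -0.09 (SE 0.09, adjusted p = 0.615). The median Z-linked gene differed by -0.43, with quartiles of -0.61 and -0.20, and 67.3% of the 611 Z-linked genes tested were called lower. Of these, 9 had a more negative difference than RPS6, 62 than RPL17, 64 than RPS23 and 505 than RPL37. In all, 3 of the 73 genes were lower and 1 higher in W+ libraries (5.48%), beside 3.33% and 1.34% of all genes, or 4.67% in both directions.

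Of the 69 members off chromosome Z, 1 was called (1.45%), RPS2 on chromosome 14, which was higher in W+ libraries. Of all genes tested, on Z or off it, 1.34% were called higher, a share near that of these members. The share over genes off Z alone is not given here. RPS2 ran from 24.2 to 33.9 CPM in W+ libraries (median 30.0) and from 20.02 to 29.4 CPM in W- libraries (median 24.6), a difference of +0.21 (adjusted p = 0.0366). It was not called with median-of-ratios scaling, quantile normalization or array weights, nor without C18R, C19L, C23R, C34L, C42L or C65L (adjusted p = 0.0719 to 0.123). The change of Z-linked members in time was also fitted with the mean log2 level of 35 W-linked genes as a covariate. RPS6 changed by -0.12 at day 6 against day 1 (adjusted p = 0.702), and by +0.26 with the covariate (adjusted p = 0.0313). RPS6 was not called in the W+ libraries alone (+0.31, adjusted p = 0.0505). Nor was it called with the covariate under median-of-ratios scaling (+0.13, adjusted p = 0.358). RPL17 changed by +0.02 (adjusted p = 0.927) and by +0.34 with the covariate (adjusted p = 0.00208). RPS23 was not called with the covariate (+0.10, adjusted p = 0.640).

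**Figure D4:**
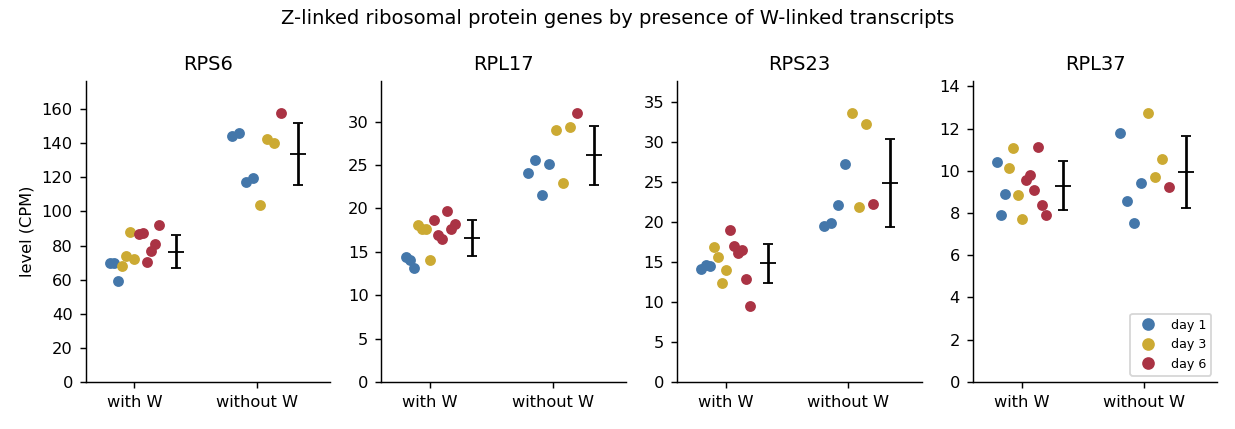
Level in CPM of the 4 members on chromosome Z, in 13 W+ libraries (left of each panel) and 8 W- libraries (right). Point colour gives the day and bars give the mean ± SD. The classes do not overlap for RPS6, RPL17 and RPS23, and do for RPL37.

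The introns of several members hold snoRNA genes, which the table lists separately. By RefSeq biotype, 15 snoRNA genes of 86 to 160 bases lie on the same strand within 11 members, and 4 of them passed the level of 0.5 CPM in 7 libraries. In RPL27A, LOC112532590 (chromosome 5, 9993003 to 9993135) ran from 1.86 to 2.97 CPM at day 1 (median 2.31), from 1.26 to 2.28 CPM at day 3 (median 1.73) and from 0.709 to 1.78 CPM at day 6 (median 1.39). Days 6 and 1 do not overlap, and the snoRNA gene fell by 0.69 on the log2 scale at day 6 against day 1 (SE 0.13, adjusted p = 0.000676). Its host RPL27A changed by +0.10 (adjusted p = 0.374), with 86.9 ± 8.001 CPM at day 6 and 81.0 ± 8.02 CPM at day 1.

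In RPS3, LOC112531619 (chromosome 1, 196642502 to 196642647) ran from 1.21 to 3.49 CPM at day 6 (median 2.02) and from 1.73 to 4.19 CPM at day 1 (median 3.46). It fell by 0.48 (SE 0.19, adjusted p = 0.0481), a call lost on leaving out any one of 12 libraries (adjusted p = 0.0528 to 0.116), while its host RPS3 rose by 0.33 (adjusted p = 0.00360). Those 12 are C10R, C17L, C18R, C19L, C21R, C34L, C44R, C57L, C59L, C62L, C63R and C64L. A further snoRNA gene of RPS3, LOC112531621, changed by -0.28 (adjusted p = 0.230).

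Set against its host in the same library, LOC112532590 was at 1.56 ± 0.412% of the RPL27A value at day 6 and 3.05 ± 0.469% at day 1. LOC112531619 was at 5.35 ± 1.78% of RPS3 at day 6 and 10.1 ± 3.01% at day 1, and LOC112531621 at 1.47 ± 0.788% and 2.61 ± 1.03%. The log2 ratios fell by 0.79, 0.81 and 0.61 (two-sided exact permutation tests, adjusted over 4 ratios, of which 3 are given, p = 0.00233, 0.00816 and 0.0186). The first of these has the smallest raw p that 3432 divisions of 7 against 7 can give, 0.000583, and was lower in 7 of 7 libraries. The ratio of LOC112531621 did not pass in the W+ libraries alone (-0.23, adjusted p = 0.540), nor with a pseudocount of 0.05 CPM. That gene averaged 0.735 CPM, near the pseudocount of 0.5 CPM used here. How reads that fall on both host and snoRNA gene were assigned is not given in the sources used here, and these ratios were chosen after the values were seen. The 11 hosts had a median change of +0.16, against +0.26 for the other 62 members. Noncoding genes as a whole took 6.48% to 8.35% of the CPM in the table at day 1. They took 6.47% to 9.74% at day 3 and 5.97% to 6.93% at day 6. Whether the falls are particular to these snoRNA genes was not tested.

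**Figure D5:**
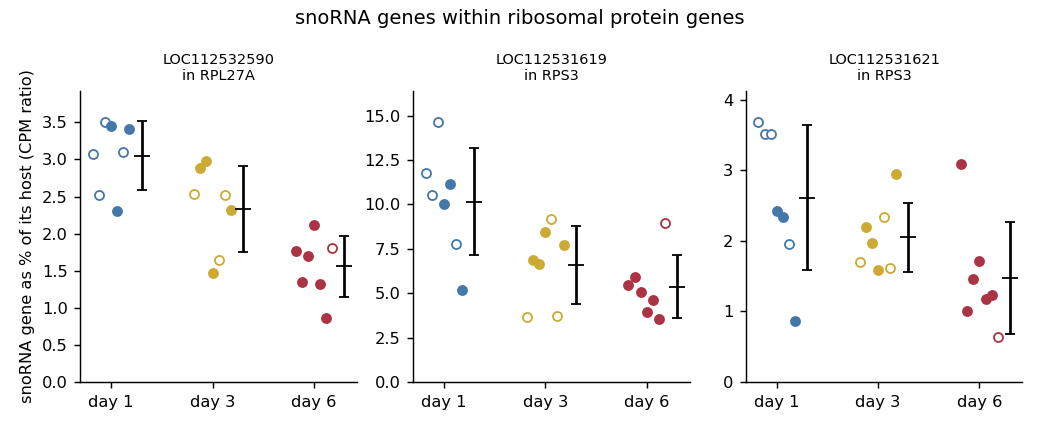
Level of 3 snoRNA genes as a percent of the CPM of the ribosomal protein gene that holds them, for 7 libraries at each of days 1, 3 and 6. Filled points are W+ and open points W- libraries, and bars give the mean ± SD. LOC112532590 averages 1.56% of RPL27A at day 6 and 3.05% at day 1.

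Other overlaps touch single members. RPL14 overlaps ENTPD3 on the same strand, so that their reads may be shared. RPL36A, RPL9, RPS19BP1 and RPS27 overlap a gene on the other strand.

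On the CPM scale, most members went with one another across libraries. The same values were not computed over all genes, so whether members vary together more than other genes was not tested. The log2 level of 69 of 73 correlated positively with the mean of the other members over the 21 libraries, with a median Pearson r of 0.575, and the first principal component held 36.4% of their variance. RPS3 (r = 0.914), RPS7 (0.911) and RPS3A (0.906) were closest to the mean of the others. RPL22L1 (r = -0.22), RPS6 (-0.18), RPS27L (-0.11) and RPS23 (-0.06) were negative. RPS6 and RPS23 differ between W+ and W- libraries, and these r take no account of that division. Taken within days, the median r was 0.432 and 67 of 73 were positive, including RPL22L1 (r = 0.08), RPS27L (0.17) and RPS23 (0.18). The 6 that were negative within days are RPS24 (r = -0.26), RPS6 (-0.14), RPL22 (-0.08), RPL23 (-0.05), RPL26L1 (-0.02) and RPL11 (-0.01), singled out after their values were seen. All points share a library and its scaling, so these values describe the libraries and are given without a p. Outside the members, KANSL3 (r = 0.858), NCLN (0.854), CUL9, ACTR2, PSMC2, DGCR2, MRM3, LOC101751456, PODXL2 and CFAP20 (0.829) lay closest to their mean. These genes were picked for the highest r outside the members, so a comparison with the median member would be settled by that choice. How common such r are outside the members is not given here.

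Within a day, the median SD of a member between libraries was 0.17 on the log2 scale, against 0.18 for all genes tested. The steadiest were RPLP2 (0.08), RPL7L1 (0.08), RPL27 (0.09) and RPL36A (0.09). The widest were RPS19 (0.53), RPS6 (0.46), RPS23 (0.44) and RPS29 (0.39). These SDs take no account of the W+ and W- classes, which do not overlap for the Z-linked RPS6 and RPS23. RPS19, whose gene is mutated in Diamond-Blackfan anaemia in humans and which lies on an unplaced scaffold here, ran from 12.8 to 38.8 CPM at day 6 (median 25.3) and from 5.56 to 18.8 CPM at day 1 (median 16.2). Its change of +0.61 did not pass (SE 0.25, adjusted p = 0.0620). Without C10R, its lowest library at day 1, the change was +0.40 (adjusted p = 0.162), and without C63R or C64L of day 6 it passed (+0.69 and +0.75, adjusted p = 0.0472 and 0.0277). RPS29 ran from 18.6 to 25.6 CPM at day 6 and from 12.8 to 22.9 CPM at day 1 (+0.34, adjusted p = 0.161). By mean CPM, the members with the most reads were RPL4 (132 CPM), RPS3A (129), RPS24 (112), RPL21 (105), RPL19 (101) and RPS6 (98.4). Those with the fewest were RPS27L (1.01), RPS21 (2.80), RPS27 (3.27), RPS19BP1 (3.42), RPS26 (4.55) and RPS28 (5.23). These are reads per gene, not divided by length, and so do not rank the transcripts.

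Genes that build or serve the ribosome were described with the same fit at day 6 against day 1, from lists chosen for their function, beside the 30.0% of all genes that rose and the 2.57% that fell. Of 3 ribosomal proteins with other names, RACK1, a scaffold on the small subunit, rose (34.9 CPM at day 6 and 24.1 CPM at day 1 on average, +0.50, adjusted p = 0.0249). That call was lost without C10R, C17L, C57L or C62L. FAU (+0.19, adjusted p = 0.0792) did not pass. Of 98 genes of ribosome biogenesis, 52 rose (53.1%) and 0 fell, with a median of +0.28 against +0.14 for all genes. NPM1, the nucleolar histone chaperone, averaged 15.7 CPM at day 6 and 9.01 CPM at day 1 (+0.77, adjusted p = 1.68e-05). TCOF1, a nucleolar partner of RNA polymerase I, rose by 0.61 (adjusted p = 5.8e-05), and SBDS, which frees the large subunit of a late assembly factor, by 0.37 (adjusted p = 0.000168). Of 17 genes of RNA polymerase I and ribosomal DNA, 8 rose (47.1%) and 0 fell, among them TTF1 (+0.51), POLR1B (+0.41) and POLR1A (+0.36).

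Of 36 initiation factors 25 rose (69.4%) and 0 fell, among them EIF3A (+0.45), EIF2B5 (+0.52) and EIF4A3 (+0.44). Of 9 elongation factors 4 rose (44.4%) and 0 fell, including EEF1A2 (+0.34), EEF1B2 (+0.22) and EIF5A2 (+0.18). Of 32 genes of mTOR signalling and ribosomal protein messengers, 15 rose (46.9%) and 0 fell, led by LARP4 (+0.44), RRAGC (+0.44) and TSC2 (+0.42). Rises and falls were 11 and 0 of 20 tRNA synthetases (RARS +0.45), 13 and 0 of 25 ribosome quality control genes (USP10 +0.24) and 4 and 1 of 9 signal recognition particle genes (SRPRA +0.55). The 73 tested genes of the mitochondrial ribosome had 17 rises (23.3%, below the share of all genes) and 0 falls, with a median of +0.18 and with MRPS25 at +0.56. With median-of-ratios scaling, where 8.25% of all genes rose and 8.91% fell, the rises and falls were 18 and 0 for biogenesis (18.4% higher), 3 and 0 for polymerase I, 13 and 0 for initiation (36.1% higher), 0 and 1 for elongation, 6 and 2 for mTOR, 1 and 0 for tRNA synthetases, 5 and 1 for quality control, 3 and 1 for the signal recognition particle, 5 and 3 for the mitochondrial ribosome (6.85% and 4.11%), and 0 and 0 for the 3 other names.

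Markers of cell types moved with day in part. Of 10 photoreceptor genes 7 rose (70%, beside the 30.0% of all genes) and 0 fell, and their sums ran from 1812 to 2322 CPM at day 6 and from 1528 to 1949 CPM at day 1. Rises and falls were 5 and 0 of 21 inner retina genes (23.8% higher), 1 and 0 of 6 pigment epithelium genes, 0 and 0 of 3 lens genes, 1 and 0 of 6 leukocyte genes and 0 and 0 of 4 fibroblast genes. They were 2 and 0 of 5 oligodendrocyte genes (130 to 248 CPM in sum at day 6, 105 to 223 CPM at day 1) and 1 and 0 of 11 genes of dividing cells. With median-of-ratios scaling they were 5 and 0 for photoreceptors, 1 and 2 for inner retina, 0 and 0 for pigment epithelium and lens, 1 and 0 for leukocytes, 0 and 1 for fibroblasts, 1 and 0 for oligodendrocytes and 0 and 0 for dividing cells. The part of cell composition in the changes of the ribosomal protein genes was not tested.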

How the data were processed

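White Leghorn chicken retina, 21 libraries with 7 per day, was measured by stranded total RNA sequencing. The authors deposited CPM values, scaled to a fixed library total with an added 0.0001, which was subtracted. STAR, Partek and build GRCg6a were used, per the submitters' processing notes. Their versions, the annotation and the use of strand in counting are not given in the sources used here. Low values were whole multiples of a step for 94.1% to 95.3% of values (tolerance 0.1 of a step). Higher values were often fractional, so reads were not recovered and no count test was run. Depth is the inverse of that step, and its precision covers counting error only.

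Genes with 0.5 CPM in 7 libraries (12614) entered limma (version 3.58.1, R 4.3.3) on log2(CPM + 0.5). The model over all 21 libraries had a mean for each day, a mean-variance trend and two-sided Benjamini-Hochberg adjustment. Fold changes on this scale understate changes of low genes. The fit was checked on simulated data. Libraries above 10 CPM of HINTW are W+. The W+ covariate is the mean log2 level of 35 W-linked genes in a library. Ratios were tested by exact permutation. Chromosome names and snoRNA biotypes come from RefSeq tables of another build (GRCg7b), and positions from the deposited table.

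Named genes are the 8 members with the smallest adjusted p at day 6 against day 1 and the 5 smallest in each other pair of days, the 6 of largest and smallest mean, the 4 of largest and smallest SD, all called lower, all on Z, all paralogs, the stalk, RPSA, up to 3 genes per list and the 10 most alike. Members and lists were chosen with earlier results of these data known. Alternatives were other pseudocounts and filters, 2 scalings, array weights, covariates, library subsets and leaving out each library. Some genes are not reported here.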

Additional observations from a re-analysis of the deposited data

Results flagged for a closer look

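In 111 sets of 7 libraries (named members and their sum, by day), 9 held a library far from the other 6 by Dixon's test, of which chance gives about 1 in 20. At day 6, C65L, the single W- library, had 31 CPM of RPL17 (next 19.7) and 158 CPM of RPS6 (next 92), both Z-linked. C10R of day 1 was lowest for RPS19 at 5.56 CPM (next 15.3) and RPS27 at 1.71 CPM (next 2.64). C41R of day 3 was highest for RPL22L1 at 18.5 CPM (next 14.5). Single cases were RPL27 at 75.1 CPM in C59L and RPL3 at 62 CPM in C62L (day 6), and RPS19BP1 at 4.2 CPM in C43R and RPS27 at 5.23 CPM in C33R (day 3).

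The change from day 3 to 6 exceeded the change from day 1 to 3 by 0.436 for RPLP0 and by 0.327 for RPLP2 on the log2 scale, as tested by limma (adjusted p = 0.0304 and 0.0182).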

How the results depend on the processing

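No paired analysis was possible because the groups share no title numbers. Of 60 named values called, 35 were called under every alternative run. Calls among members, of any direction, changed as follows. Day 6 against day 1 gave 40, and 12 with median-of-ratios scaling, 14 with quantile normalization, 16 in W+ libraries alone and 8 with median-of-ratios scaling and the W+ covariate. Of all genes, 30.0%, 8.25%, 8.18%, 6.15% and 5.01% rose in the same order, and 2.57%, 8.91%, 7.87%, 0.682% and 5.76% fell. Day 6 against day 3 gave 15, and 7, 6, 7 and 8 in the same order. Of all genes, 17.4%, 8.63%, 8.74%, 6.64% and 7.98% rose, and 4.93%, 8.51%, 8.82%, 2.89% and 8.17% fell. Differences among the 3 days gave 35, and 9, 17, 16 and 10. Called and higher at day 6 than day 1 were 47.9%, 12.3%, 20.5%, 21.9% and 12.3% of members. For all genes these shares were 33.2%, 13.4%, 13.5%, 10.4% and 10.8%. Called and lower were 0%, 0%, 2.74%, 0% and 1.37% of members, and 5.37%, 14.3%, 13.2%, 2.65% and 12.7% of all genes. With median-of-ratios scaling, members were thus called less often than all genes. Day 3 against day 1 gave 3, and 0 under each of these 4, without a filter and with the 2 days alone, 1 with the title letter, 7 with a floor of 2.5 CPM and 8 with array weights. Rises over all genes were 7.71% in the main fit and 4.51%, 4.54%, 1.38% and 4.4% under these 4. They were 4.81% without a filter, 5.71% with the 2 days alone, 7.46% with the title letter, 9.93% with the floor and 8.8% with array weights. The test of unequal steps gave 2, and 1 with quantile normalization (RPLP0) and 0 in W+ libraries alone. Of all genes, 6.33%, 6.27% and 2.43% were higher and 5.48%, 6.52% and 2.06% lower in that test, in the same order. Leaving out each library gave 32 to 41, 11 to 16, 31 to 38, 0 to 19 and 1 to 5 calls for these comparisons, and 3 to 4 for W+ against W-. Over all genes, calls of a higher value ran from 24.7% to 31.3%, 13.5% to 20.3%, 28.6% to 35.9%, 4.99% to 13.6% and 4.38% to 8.94%. For W+ against W-, calls over all genes ran from 0.943% to 1.98% higher and from 3.15% to 3.35% lower. The unequal-step count was 5 without C41R, 3 without C42L, C43R, C44R or C59L, and 1 without C31L or C34L.

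Direction turned for values near 0 at day 6 against day 1. With median-of-ratios scaling, quantile normalization, and median-of-ratios scaling with the W+ covariate, RPLP1 was at -0.0145, -0.0423 and -0.0262, RPL7L1 at -0.0339, -0.04 and -0.0166, and RPL37 at -0.128, -0.157 and -0.0642. RPL17 was at -0.127 and -0.126 with the 2 scalings. With the title letter RPL17 was at -0.044 and RPL37 at -0.0174. With the W+ covariate RPS6 was at 0.264 and RPS23 at 0.0974, in W+ libraries alone RPS6 at 0.307, RPS23 at 0.036, LOC112531621 at 0.052 and the RPL7 to RPL7L1 ratio at 0.0586, and with both RPS6 at 0.133. That ratio was 0.00173 with a pseudocount of 2.5. The cause was not tested. Leaving out each library moved RPLP1 between -0.00357 and 0.233, RPL17 between -0.0859 and 0.095, RPL37 between -0.025 and 0.0784, and the RPL7 to RPL7L1 ratio between -0.0457 and 0.0342. Low depth limits RPS27L and the snoRNA genes, and 7 libraries per day the smaller changes.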
